A study of Mus musculus musculus x M. m. domesticus and Mus musculus domesticus and Mus musculus with 12 samples.

Results

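Sertoli cells are the somatic cells of the seminiferous tubule. They nurse the germ cells through spermatogenesis, build the blood-testis barrier and secrete inhibin, which restrains the release of follicle-stimulating hormone by the pituitary. Their number is set before puberty, while the number of germ cells around them changes with the state of spermatogenesis, so genes of Sertoli cells are often read in whole testis as a measure of the share of somatic RNA. The genes described here are 8 Sertoli cell genes chosen by name: the transcription factors Sox9, Wt1 and Gata4, the secreted chaperone Clu (clusterin), the follicle-stimulating hormone receptor Fshr, the inhibin alpha subunit Inha, the tight junction protein Cldn11 and the intermediate filament protein Vim (vimentin). Of these, 7 had values among the 7000 genes of the expression table (Sox9, ENSMUSG00000000567_at; Wt1, ENSMUSG00000016458_at; Gata4, ENSMUSG00000021944_at; Clu, ENSMUSG00000022037_at; Inha, ENSMUSG00000032968_at; Cldn11, ENSMUSG00000037625_at; Vim, ENSMUSG00000026728_at), and Fshr was not analysed here. Sox9 and Wt1 are largely restricted to Sertoli cells within the adult testis. Gata4 and Inha are also expressed by Leydig cells, and Vim is made by most somatic cells of mesenchymal origin.

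RNA of the whole testis came from 12 males at 60 days of age, 3 of each of 4 genotypes, and each male had an Affymetrix mouse expression array of its own. All were F1 males, and the maternal strain is written first. Within *M. domesticus*, the fertile genotype *DxD* was bred from LEWES/EiJ mothers and WSB/EiJ fathers. Within *M. musculus*, the fertile genotype *MxM* had PWK/PhJ mothers and CZECHII/EiJ fathers. Of the reciprocal hybrids, the fertile *DxM* had LEWES/EiJ mothers and PWK/PhJ fathers, and the sterile *MxD* had mothers of PWK/PhJ and fathers of LEWES/EiJ. Both hybrids carried the same autosomal genotype, with the X chromosome of *M. domesticus* in *DxM* and that of *M. musculus* in *MxD*. Histology in the study described fewer germ cells, and above all fewer postmeiotic cells, in *MxD* testis. In bulk tissue, more cells of a type and more RNA per cell cannot be told apart. All values below are log2 expression values, quantile normalized over the arrays, and a difference of 1 is a doubling. Levels are compared between males for 1 gene at a time, never between genes, because the probes of different genes differ.

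All arrays shared a median of 8.14. In *MxM* replicate 3, 131 genes fell short of the other 11 males by 1 log2 unit or more, and this count was not made for any other male. For the Sertoli genes, that male was the lowest of the 12 for Gata4, by 0.34, and for Inha, by 0.09, and it was not the lowest for the other 5.

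Vim, Clu, Cldn11, Inha and Wt1 had their highest mean in the sterile *MxD* males, 5 of 7 genes where 27.2% of all genes did so, and Sox9 and Gata4 did not. For 4 of the 7 genes (Vim, Clu, Cldn11 and Inha) every *MxD* male lay above all 9 fertile males, a pattern shown by 5.47% of all genes. The study called a gene sterility-correlated where it separated the hybrids and also set *MxD* apart from *DxD* or *MxM*. The definition was applied here with limma, which shares information on the spread across genes, at an unadjusted p under 0.05. In this form it was met by the same 5 of 7 genes and by 19.8% of all genes. By the study's own gene-by-gene test, which has equal variances, Wt1 did not separate the hybrids at that threshold. Wt1 thus did not meet the definition as the study applied it, while Vim, Clu, Cldn11 and Inha did.

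**Figure D1:**
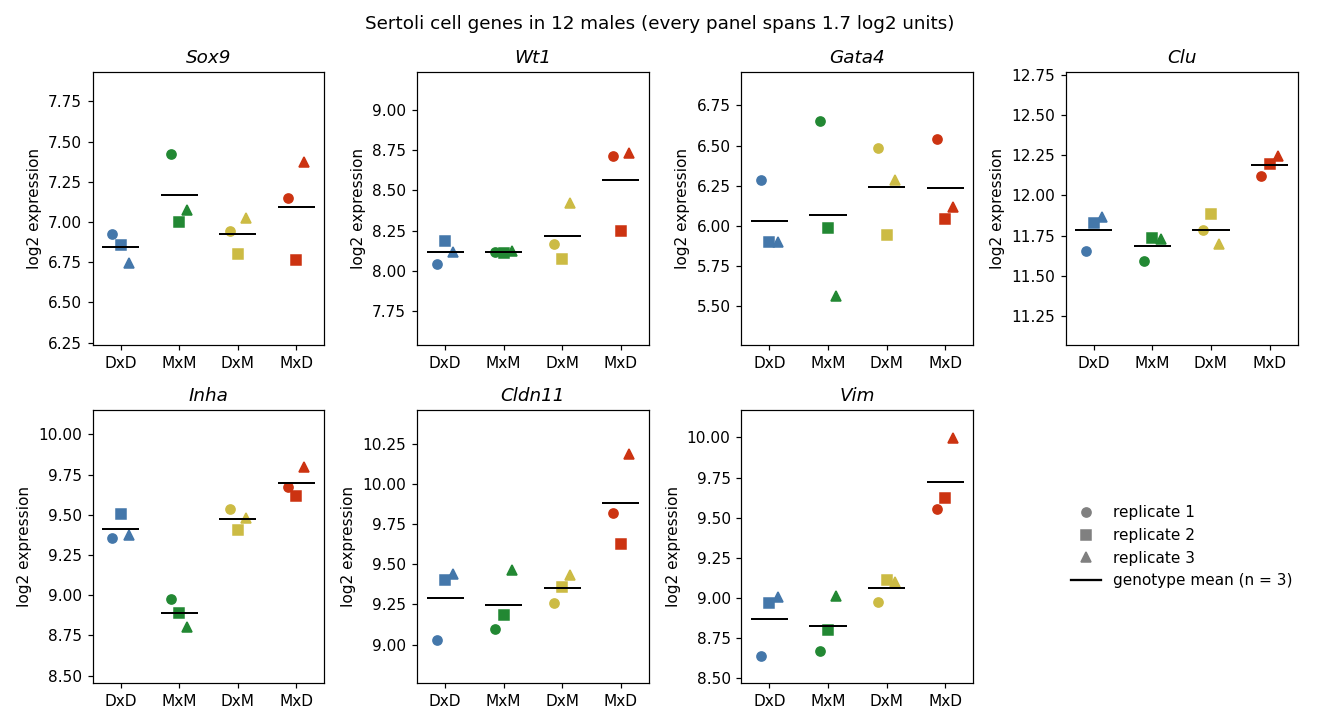
Log2 expression of the 7 Sertoli cell genes in each of the 12 males, by genotype, with the replicate number as the symbol and the genotype mean (n = 3) as a black line. The *MxD* males lie above all fertile males for Clu, Inha, Cldn11 and Vim, the *MxM* males lie below all others for Inha, and the genotypes overlap for Sox9 and Gata4.

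Vim, whose filaments run from the base of the Sertoli cell towards its apex, measured 9.55, 9.62 and 10.00 in the *MxD* males. The fertile males measured 8.98, 9.11 and 9.10 in *DxM*, 8.64, 8.97 and 9.01 in *DxD*, and 8.67, 8.80 and 9.01 in *MxM*. The lowest *MxD* male was thus above the highest fertile male. Vim was 0.66 higher in *MxD* than in *DxM* (standard error 0.14, limma adjusted p = 0.0155), a ratio of 1.58. Over all genes, that difference ranked 59 of 7000 from the top. It was also higher than in *DxD*, by 0.85 (limma adjusted p = 9.31e-04), and than in *MxM*, by 0.90 (limma adjusted p = 7.27e-04).

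Clu, a chaperone that Sertoli cells secrete in large amounts, varied least among the sterile males. It measured 12.12, 12.20 and 12.24 in *MxD* against 11.78, 11.88 and 11.69 in *DxM*, 11.66, 11.83 and 11.86 in *DxD*, and 11.59, 11.74 and 11.73 in *MxM*. The 9 fertile males overlapped with each other, and the *MxD* males stood apart from them. Clu exceeded its level in *DxM* by 0.40 (standard error 0.08, limma adjusted p = 0.0134), that in *DxD* by 0.41 (limma adjusted p = 0.00325) and that in *MxM* by 0.50 (limma adjusted p = 0.00104). In the same order these are ratios of 1.32, 1.32 and 1.41.

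Cldn11, the claudin of the tight junctions between Sertoli cells, lies on chromosome 3 in the gene annotation of the study. It measured 9.82, 9.63 and 10.19 in *MxD*, where the highest of the 9 fertile males was at 9.46. The *DxM* males were at 9.26, 9.36 and 9.43, the *DxD* males at 9.03, 9.40 and 9.44, and the *MxM* males at 9.10, 9.18 and 9.46. Cldn11 was higher in *MxD* than in *DxD* by 0.59 (standard error 0.15, limma adjusted p = 0.0134) and than in *MxM* by 0.63 (limma adjusted p = 0.0101). The difference from *DxM*, 0.53, did not pass adjustment over all genes (limma adjusted p = 0.067), but it did in the fit that blocked on replicate number (limma adjusted p = 0.0107). With all replicate 1 arrays left out, the calls against *DxD* and *MxM* were lost (limma adjusted p = 0.0867 and 0.0532), as they were by both forms of the methods' t-test. The call against *DxD* was also lost without *DxD* replicate 1 (limma adjusted p = 0.0588) and without *MxD* replicate 3 (0.0555).

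Wt1, a zinc finger factor required to keep Sertoli cells in their differentiated state, lies on chromosome 2. It measured 8.71, 8.25 and 8.73 in the *MxD* males, and replicate 2 of these overlapped with *DxM*, at 8.17, 8.07 and 8.42. The *DxD* males were at 8.04, 8.18 and 8.12. The *MxM* males were nearly equal, at 8.12, 8.11 and 8.12. Wt1 was higher in *MxD* by 0.45 against *DxD* (standard error 0.13, limma adjusted p = 0.020) and by 0.45 against *MxM* (limma adjusted p = 0.021), and the difference of 0.34 from *DxM* did not pass (limma adjusted p = 0.139). Both calls were lost with all replicate 1 arrays left out (limma adjusted p = 0.187 and 0.15).

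The other transcription factors of the Sertoli cell did not pass the test in any comparison. Sox9, which directs the Sertoli cell fate in the fetal gonad, measured 7.15, 6.76 and 7.38 in *MxD*, 6.94, 6.80 and 7.03 in *DxM*, 6.93, 6.86 and 6.74 in *DxD*, and 7.42, 7.002 and 7.08 in *MxM*. The *MxD* males spanned almost the whole range of the 12 males. The mean was 0.17 above that of *DxM* (95% limma interval -0.16 to 0.50) and 0.25 above that of *DxD* (-0.08 to 0.58), and relative to *MxM* it was at -0.07 (-0.40 to 0.26). Without *MxD* replicate 2 the difference from *DxD* was 0.42 and passed (limma adjusted p = 0.042).

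Gata4, a zinc finger factor of Sertoli and Leydig cells, measured 6.54, 6.05 and 6.12 in *MxD*, 6.49, 5.94 and 6.29 in *DxM*, 6.29, 5.90 and 5.90 in *DxD*, and 6.65, 5.99 and 5.56 in *MxM*. Its spread within *MxM* was 0.55 (SD, n = 3), the widest of any Sertoli gene in any genotype. The difference between *MxD* and *DxM* was 0.00 with a 95% limma interval from -0.55 to 0.54. When the fit blocked on replicate number, the interval narrowed to -0.33 to 0.32. It overlapped with the blocked 95% limma intervals of Wt1 (0.09 to 0.60), Clu (0.26 to 0.54) and Cldn11 (0.30 to 0.76). The blocked intervals of Inha (0.05 to 0.39) and Sox9 (-0.11 to 0.46) also overlapped with it, and that of Vim (0.48 to 0.84) lay above it. Overlap of intervals does not test a difference between genes measured in the same males. In the permutation test of pairs described below, Gata4 and Vim did not pass (adjusted p = 0.164, unadjusted p = 0.0545).

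Counted over the Sertoli genes, 2 of 7 were higher in *MxD* than in *DxM* by limma after Benjamini-Hochberg adjustment (Vim and Clu), where 6.5% of all genes were called and 3% were called higher in *MxD*. The count was 5 of 7 against *DxD* (31% of all genes called, 15.9% higher) and 5 of 7 against *MxM* (30.3% called, 13% higher), and no Sertoli gene was called lower in *MxD*. When the fit blocked on replicate number, 3 of 7 were called against *DxM*, where 17.2% of all genes were called and 8.33% were called higher. The blocked count was still 5 of 7 against *DxD* (46% of all genes) and against *MxM* (43.9%). At an unadjusted limma p under 0.05, 5 of 7 differed from *DxM*, as did 21.8% of all genes. The methods' t-test, with equal variances, called 0 of 7 after adjustment against *DxM* (0.129% of all genes), 2 against *DxD* (22.7%) and 2 against *MxM* (6%). At an unadjusted p under 0.05 it called 4 (18.5%), 4 (40.5%) and 5 (28.6%). Its form with unequal variances called 0 of 7 after adjustment in each of these comparisons (0%, 9.34% and 0.0429% of all genes), and 3 (15%), 3 (34.7%) and 4 (24.1%) unadjusted. The median difference over the 7 genes was 0.34 from *DxM*, 0.41 from *DxD* and 0.50 from *MxM*, beside medians within 0.01 of 0 over all genes. These 3 comparisons share the *MxD* males. Without *MxD* replicate 3, the highest *MxD* male for every Sertoli gene but Gata4, limma called 0 Sertoli genes against *DxM* (2.46% of all genes), 2 against *DxD* (21.9%) and 4 against *MxM* (21.2%). Against *DxM* the count was also 0 without *DxM* replicate 1 (3.1% of all genes) or replicate 3 (2.94%), and it was 4 without *MxD* replicate 2 (5.56%). Against *DxD* it was 2 without *DxD* replicate 1 (22.2%) and 3 without *DxD* replicate 3 (22.5%). With all replicate 1 arrays left out, limma called 2 against *DxM* (3.89%), 2 against *DxD* (25.6%) and 3 against *MxM* (24.8%).

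**Figure D2:**
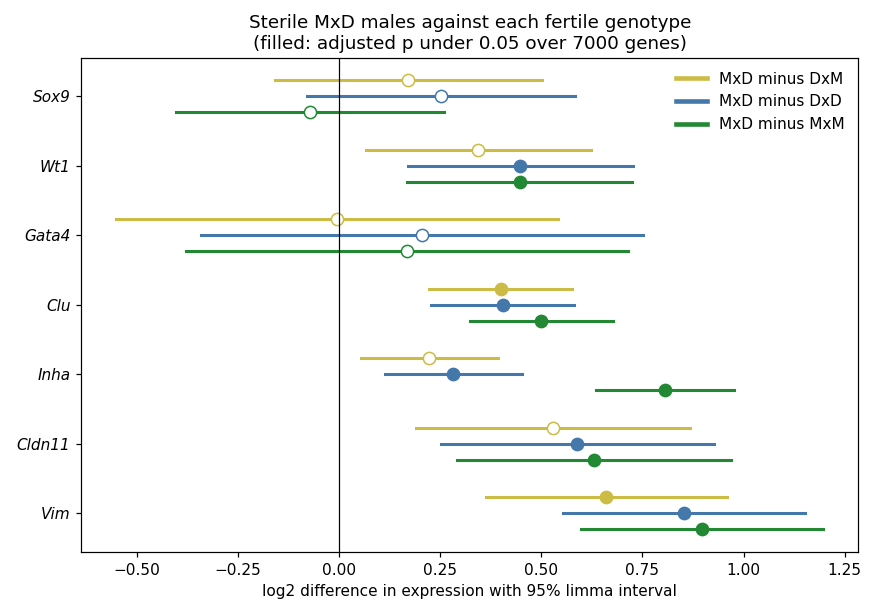
Log2 difference of the sterile *MxD* males from each fertile genotype for the 7 Sertoli genes, with the 95% limma interval (3 males per genotype) and filled points for an adjusted p under 0.05. The differences of Clu, Cldn11, Vim, Wt1 and Inha lie above 0, Inha differs far more from *MxM* than from the other genotypes, and the intervals of Sox9 and Gata4 include 0.

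Inha, the subunit that makes a dimer an inhibin rather than an activin, was the 1 Sertoli gene that differed among the fertile genotypes. It lies on chromosome 1. The *MxM* males were at 8.98, 8.89 and 8.80, below every other male, which 6.09% of all genes showed. The *DxD* males measured 9.35, 9.51 and 9.38 and the *DxM* males 9.53, 9.41 and 9.48, so these 2 genotypes overlapped. Inha was higher in *DxD* than in *MxM* by 0.52 (standard error 0.08, limma adjusted p = 3.6e-04), where 14% of all genes were called higher in *DxD*, and higher in *DxM* than in *MxM* by 0.58 (limma adjusted p = 5.93e-04), where 6.51% were called higher in *DxM*. The methods' t-test in its unequal variance form called the first difference after adjustment (6.69% of all genes) and not the second (0.0571%). Between *DxM* and *DxD* the difference was 0.06, with a 95% limma interval from -0.11 to 0.23. The means of both hybrids, which carry an allele of either species, were above that of *DxD*. For *DxM* this difference was not called (limma adjusted p = 0.709), and it was -0.0008 with all replicate 1 arrays left out. The hybrids have no WSB/EiJ or CZECHII/EiJ parent, so *DxD* and *MxM* are not their parental values.

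In the sterile *MxD* males Inha measured 9.67, 9.62 and 9.80. It was higher than in *MxM* by 0.81 (standard error 0.08, limma adjusted p = 4.61e-05), a ratio of 1.75, and higher than in *DxD* by 0.28 (limma adjusted p = 0.017). The latter call was lost in 6 settings, among them all replicate 1 arrays left out (limma adjusted p = 0.0799), without *MxD* replicate 3 (0.0713) and without *DxD* replicate 1 (0.0661) or replicate 3 (0.0627). From *DxM* it differed by 0.22, a ratio of 1.17, which did not pass adjustment (limma adjusted p = 0.117, or 0.0726 when blocked). The order of the genotypes was *MxD*, *DxM*, *DxD* and *MxM*, and of the neighbours in that order *DxD* and *MxM* differed beyond their spread by this test.

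The remaining 6 Sertoli genes did not pass the test in any comparison among fertile genotypes. Between *DxD* and *MxM*, where 31.9% of all genes were called, their differences ran from -0.32 (Sox9) to 0.09 (Clu), with limma adjusted p-values of 0.128 or more. Between *DxM* and *MxM*, where 16.9% of all genes were called, they ran from -0.24 (Sox9) to 0.24 (Vim). With the replicate block, 1 of 7 was still called in each of these comparisons, where 44.4% and 27.4% of all genes were. Between *DxM* and *DxD*, where 12.1% of all genes were called and 5.84% were higher in *DxM*, limma called 0 of 7 genes after adjustment and 0 at an unadjusted p under 0.05 (25.5% of all genes). The methods' t-test gave 0 adjusted (11.1%) and 0 unadjusted (29.3%), and its form with unequal variances 0 adjusted (2.43%) and 0 unadjusted (24.8%). Limma with the replicate block gave 0 adjusted (22.6%) and 1 unadjusted (35.9%), Vim, with an unadjusted limma p of 0.0399.

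Whether the Sertoli genes shifted by different amounts in *MxD* was not resolved. For each of the 21 pairs of genes, the difference between both genes within a male was compared between the 3 *MxD* and the 9 fertile males with a two-sided exact permutation test over 220 splits, which pools the fertile genotypes and leaves the replicate numbers out. After Benjamini-Hochberg adjustment over the 21 pairs 0 passed, and the lowest adjusted p was 0.0955, where 0.00909 is the smallest unadjusted p that the design can give. With that smallest p, only 1 or a few unequal pairs could not have passed the adjustment, so its outcome does not speak on single pairs. At an unadjusted p under 0.05 there were 6 pairs. The shift of Clu relative to Vim was -0.37 and that of Sox9 relative to Vim -0.69, both of them among these 6 pairs.

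For each male, the deviation of every Sertoli gene from its median over the 12 males was averaged over the 7 genes. This mean deviation was 0.38, 0.18 and 0.51 in the *MxD* males. It ran from -0.04 to 0.08 in *DxM*, from -0.13 to -0.03 in *DxD* and from -0.17 to -0.05 in *MxM*. The lowest *MxD* male, replicate 2, was above the highest fertile male, *DxM* replicate 3. With any 1 of the 7 genes left out, or with each array centred on the median of its autosomal genes, all *MxD* males stayed above all fertile males, and the distance between the mean of *MxD* and that of *DxM* ranged from 0.28 to 0.39, with 0.33 for all 7 genes. Because the genes were chosen with earlier results known, no p-value is given for this mean.

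By their mean deviation, genes of the study's mitotic and postmeiotic classes also set all *MxD* males apart from all fertile males. The somatic and meiotic classes overlapped with *MxM* replicate 3. The study assigned genes to the testis cell population in which they were most strongly induced, and this assignment was used for the 1997 annotated genes at hand, all on chromosomes 1 to 5. The somatic class stands for genes most induced in isolated Sertoli cells and the mitotic class for those most induced in spermatogonia. Cldn11 is listed as somatic, and Inha, Wt1 and Vim as mitotic. Without these 4 genes, the mean deviation of 269 postmeiotic genes was -0.13 to -0.24 in the *MxD* males and 0.01 to 0.08 in the 9 fertile males. That of 364 mitotic genes was 0.10 to 0.21 in *MxD* and -0.15 to 0.02 in the fertile males. The 141 somatic genes were at 0.06 to 0.08 in *MxD*, and *MxM* replicate 3, at 0.10, was above all of these. The other fertile males, from -0.09 to 0.01, were below them. Against *DxM*, the median difference was 0.10 for the somatic, 0.15 for the mitotic and -0.20 for the postmeiotic genes, beside 0.34 for the Sertoli genes. By limma with adjustment, 7 of the 141 somatic genes were higher in *MxD* than in *DxM* (4.96%) and 2 were lower (1.42%). Over all genes, 3% were called higher and 6.5% in either direction. Among the mitotic genes 27 were higher (7.42%) and 4 lower (1.1%), and among the 324 meiotic genes 3 were higher (0.926%) and 8 lower (2.47%). Among the postmeiotic genes 1 was higher (0.372%) and 38 were lower (14.1%). Blocked on replicate number, the higher and lower counts were 26 and 6 (somatic), 80 and 6 (mitotic), 6 and 28 (meiotic) and 1 and 93 (postmeiotic). In that fit 8.33% of all genes were called higher and 17.2% in either direction. Unblocked, 27.7% of the somatic genes were higher and 8.51% lower against *DxD*, and 22% and 12.8% against *MxM*. Over all genes, 15.9% and 13% were called higher in these 2 comparisons, and 31% and 30.3% in either direction. Of the meiotic genes, 20.1% were lower and 6.17% higher against *DxD*, and 20.4% and 7.41% against *MxM*. The mean deviation of the meiotic genes was -0.09 to -0.04 in *MxD*, which overlapped with *MxM* replicate 3 at -0.08. The part of germ cells in the values of the Sertoli genes was not tested.

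Leydig cells, the somatic cells between the tubules, share Inha and Gata4 with Sertoli cells. Of 12 Leydig cell genes listed for comparison, only Cyp17a1, an enzyme of androgen synthesis, could be matched by name. That name comes from the study's list of 45 sterility-correlated genes, which was chosen from these same arrays. A difference in *MxD* was therefore set by that choice, and the other listed Leydig cell genes were not analysed here. The study described the list as postmeiotic genes higher and mitotic genes lower in sterile males. Cyp17a1, being higher in *MxD*, thus entered it as a gene of the postmeiotic class. As a description only, Cyp17a1 was higher in *MxD* than in *DxD* by 1.09 and than in *MxM* by 1.26. It was 0.67 above *DxM*, which limma did not call even so (adjusted p = 0.175). Its values were 11.23, 11.17 and 11.29 in *MxD*, above all 9 fertile males, which ran from 9.54 to 10.69. That pattern was shown by 5.47% of all genes. The part of Leydig cells in the values of Inha and Gata4 was not tested.

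**Figure D3:**
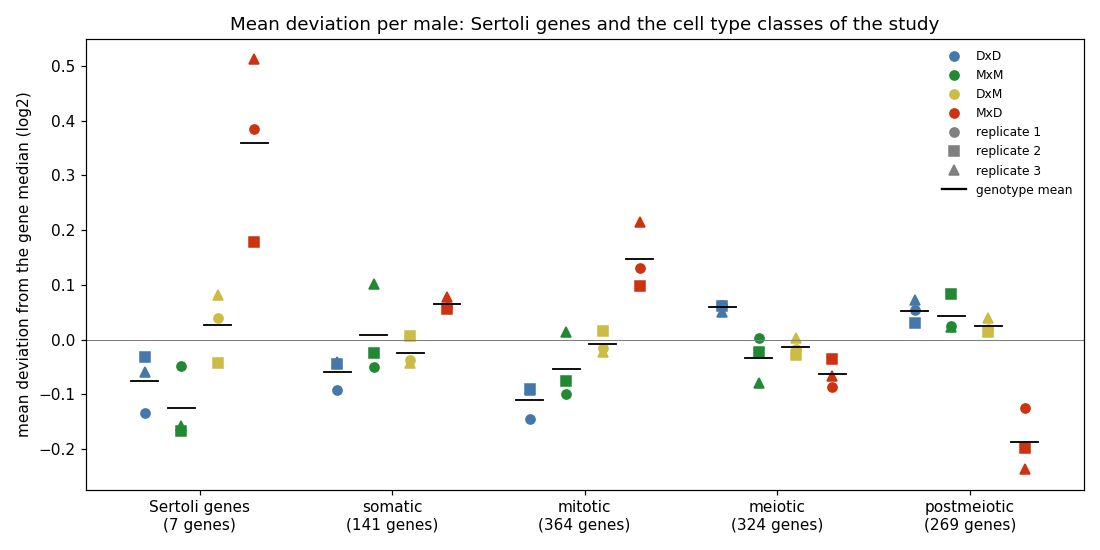
Mean deviation from the gene median over 12 males (log2) for the 7 Sertoli genes and for the genes of each cell type class of the study, 1 point per male with the replicate number as the symbol and the genotype mean (n = 3) as a black line. The *MxD* males lie above the fertile males for the Sertoli and mitotic genes and below them for the postmeiotic genes, while the somatic class overlaps with *MxM* replicate 3.

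Within genotypes, the Sertoli genes did not vary as 1 group. Gata4 was highest in replicate 1 of all 4 genotypes, which 15% of all genes showed, and the replicate 1 males were 0.25 to 0.58 above their genotype mean. Vim was lowest in replicate 1 of all 4 genotypes, which 20.7% of all genes showed, at -0.09 to -0.23 relative to the genotype mean. Cldn11 and Clu were lowest in replicate 1 of 3 genotypes. The labels number the males without saying what the number marks, and the part of a shared handling step in these deviations was not tested.

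Over the 12 males, the 10 pairs among Vim, Clu, Cldn11, Inha and Wt1 correlated with r from 0.62 to 0.96, and the 10 pairs of these genes with Sox9 or Gata4 with r from -0.12 to 0.49. These correlations are given as descriptions over 12 males in which the genotypes differ. After removing the genotype means, Cldn11 and Vim still varied together (r = 0.94), and Sox9 varied with Wt1 (r = 0.70) and with Inha (r = 0.70). Gata4 and Vim varied in opposite directions (r = -0.72), as did Gata4 and Clu (r = -0.77). The part of the replicate number in these values was not tested.

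**Figure D4:**
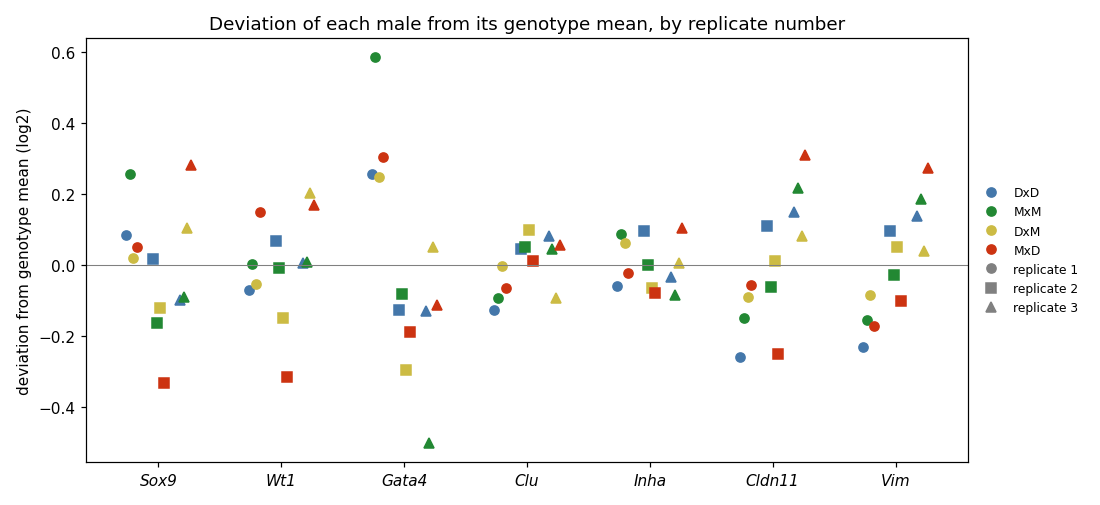
Deviation of each male from the mean of its genotype (log2) for the 7 Sertoli genes, with colour for the genotype and symbol for the replicate number. The replicate 1 males lie above 0 for Gata4 and below 0 for Vim, Cldn11 and Clu in all 4 genotypes, and *MxD* replicate 2 lies low for Sox9, Wt1 and Cldn11.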

How the data were processed

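Whole testis RNA of 12 males was hybridized to an Affymetrix mouse array designed from the laboratory mouse, which is mostly of *M. domesticus* origin. The authors used PLIER with BRAINARRAY definitions that group probes by Ensembl gene, kept genes detected in every male, and deposited the log2 values after quantile normalization. A gene undetected in 1 male is therefore absent, and every value is relative to the other genes of its array. The number of arrays limits the precision.

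The log2 values were used as deposited. Limma 3.58.1 (R 4.3.3) was fitted to all 7000 genes with a mean for each genotype, and a gene was called at a two-sided Benjamini-Hochberg adjusted p under 0.05 over all genes. The fit was tested on simulated data. Alternatives were the t-test of the methods, which has equal variances, and its unequal variance form, fits of 2 genotypes only, blocking on replicate number, a trended robust prior, leaving out the 25% of genes with the lowest mean, a second quantile normalization, centring on 2005 autosomal genes, other thresholds and each male left out. Leaving out all replicate 1 arrays was added after seeing the data. The members and lists were chosen with earlier results of these data known. Nothing in the labels states more than separate samples, so p-values measure the spread between these samples.

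Symbols come from the choice of members and from the study's list of 45 sterility-correlated genes. That list was selected from these same arrays for differing in sterile males. Of the 133 symbols in the marker lists, Inha, Cldn11 and Cyp17a1 could be matched, and the others were not analysed here. Chromosomes follow the gene annotation of the study. The named genes are the members, with at most 3 genes per list. Same-numbered males were checked for pairing by the correlation across genes of their deviations from genotype means. It was 0.151 to 0.756 between *MxD* and each fertile genotype and -0.0511 to 0.754 among fertile genotypes. In each comparison it was highest for replicate 1. The main fit and the permutation test left the numbers out. The blocked fit, an alternative, took them as pairing the males, on these values alone.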

Additional observations from a re-analysis of the deposited data

How the results depend on the processing

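Of the 14 called differences, none changed direction under the 23 alternatives run for each. Most of these alternatives change the test and leave the difference itself as it was. A direction could change only with centring, with all replicate 1 arrays left out, or without a male of either compared genotype. Only that of Inha between *DxD* and *MxM* was called under all of them, and the looser thresholds among them could not lose a call. The t-test with unequal variances called 0 Sertoli genes after adjustment between *MxD* and each fertile genotype and 0 between *DxM* and *MxM*, with 3 (*DxM*), 3 (*DxD*) and 4 (*MxM*) at an unadjusted p under 0.05. The methods' form with equal variances called 0 against *DxM* (0.129% of all genes), 2 against *DxD* (22.7%) and 2 against *MxM* (6%). At an unadjusted p under 0.05 limma gave 5 against *DxM*. With all replicate 1 arrays left out it called 2 against *DxD* and 3 against *MxM*. With each male left out in turn, the counts for *MxD* ranged from 0 to 4 against *DxM* (2.46% to 9.53% of all genes), from 2 to 6 against *DxD* (21.9% to 37.2%) and from 4 to 5 against *MxM* (21.2% to 30.8%). The replicate block added Cldn11 to the genes called against *DxM* (3 in place of 2) and changed no other call of a Sertoli gene. Which property of these settings moved the counts was not tested.

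Changes of sign occurred in 11 differences that were not called. With all replicate 1 arrays left out, these were Sox9 between *MxD* and *MxM* (0.0312), Wt1 (0.0355) and Gata4 (0.13) between *DxD* and *MxM*, and Clu (-0.0559), Inha (-0.0008) and Cldn11 (-0.0238) between *DxM* and *DxD*. With centring on the autosomal median, Wt1 between *DxD* and *MxM* was at 0.024 and Clu between *DxM* and *DxD* at -0.0176. With single males left out, the values ranged from -0.212 to 0.0945 for Sox9 (*MxD* minus *MxM*), from -0.16 to 0.12 for Gata4 (*MxD* minus *DxM*), from -0.0833 to 0.46 for Gata4 (*MxD* minus *MxM*) and from -0.079 to 0.46 for Gata4 (*DxM* minus *MxM*). Between *DxD* and *MxM* they ranged from -0.29 to 0.25 for Gata4, from -0.0345 to 0.0351 for Wt1, from -0.0344 to 0.17 for Cldn11 and from -0.0325 to 0.16 for Vim. Between *DxM* and *DxD* they ranged from -0.0582 to 0.0512 for Clu and from -0.0693 to 0.14 for Cldn11. For Sox9 and Gata4, 3 males per genotype leave wide intervals, which narrow with the block (for Sox9 against *DxM*, from -0.11 to 0.46).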

Other observations

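The genes whose 12 values most resembled the mean deviation of the Sertoli genes were ENSMUSG00000044477 (Pearson r = 0.97, Spearman rho = 0.97 over 12 males) and ENSMUSG00000070544 on chromosome 2 (r = 0.96, rho = 0.89). The table pairs neither with a symbol. Of these, the study listed ENSMUSG00000070544 as mitotic. ENSMUSG00000044477 had a mean of 9.67 in the sterile males, and its fertile means ran from 9.36 (*MxM*) to 9.501 (*DxM*). ENSMUSG00000070544 had 9.34 in the sterile males and 8.999 (*DxD*) to 9.13 (*DxM*) in the fertile ones. Their differences between *MxD* and *DxM* were 0.17 and 0.22, with limma adjusted p-values of 0.189 and 0.119. After removing the genotype means the correlations were r = 0.91 and r = 0.83. Both genes were picked for their likeness over these same 12 males, so these values are no separate support. Each Sertoli gene was also compared with the mean deviation of the other 6. Over 12 males the order depended on the measure. By Pearson's r, Wt1 was closest to the others (r = 0.91, rho = 0.80) and Gata4 farthest (r = 0.14, rho = 0.17), and by Spearman's rho Inha was closest (rho = 0.85, r = 0.67) and Sox9 farthest (rho = 0.08, r = 0.26). All values are descriptions over males that share genotypes and replicate numbers.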
